A study of Mus musculus with 47 samples.

Results

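The troponin and tropomyosin genes of the thin filament are described here in single muscle fibres: 10 genes chosen by name from the 24421 in the count files. They are the fast skeletal troponins Tnnt3, Tnni2 and Tnnc2, the slow skeletal troponins Tnnt1 and Tnni1, the slow and cardiac troponin C gene Tnnc1, the cardiac troponin T gene Tnnt2, and the tropomyosins Tpm1, Tpm2 and Tpm3. FVB/N mice gave the fibres, which were isolated from a fast hindlimb muscle, the extensor digitorum longus (EDL), and the animals were 2 to 3 months old. Of 47 fibres, 27 were wild type (WT), from 3 mice, and 20 were C2KO, from 2 mice in which exons 2 to 22 of Mybpc2 had been replaced by a Neo cassette. Mybpc2 encodes fast skeletal myosin binding protein C, and the labels name no other allele and no treatment beyond collagenase release of the fibres. No label ties a fibre to a mouse.

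Troponin is the calcium switch of the sarcomere. Troponin C binds calcium, troponin I holds the filament off, and troponin T fastens both to tropomyosin, a coiled coil that lies along actin and covers its myosin binding sites at rest. Fast and slow fibres use different genes for each troponin subunit, so the mix of these genes is a common readout of fibre type. Heart has its own genes for troponin T and I and shares Tnnc1 with slow fibres. The comparison of genotypes here asks whether fast fibres that lack myosin binding protein C keep their fast set of thin-filament regulators.

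Libraries held 7769593 to 14606631 gene counts in WT and 7648762 to 10517887 in C2KO. Levels are given per fibre as counts per 1000000 gene counts (CPM). Tests used sums of fibres, with WT divided by sequencing run into pools 1, 2 and 3 (10, 10 and 7 fibres) and C2KO divided by fibre-name prefix into pools 740 and 2445 (10 fibres each). Y-linked counts were found throughout pool 740, and Xist counts in their place throughout pool 2445. WT pools held both kinds, with 16 fibres above 10 Y-linked counts and 11 others above 10 Xist counts. Of the 16, 1 had 11 Y-linked and 176 Xist counts, and it was grouped with the Y-linked fibres. Some of the 11 had Y-linked counts too, but none had more than 10. In 3 fibres of pool 740 the summed fibroblast and endothelial markers lay above the highest WT fibre (124 CPM). The deleted gene Mybpc2 was at 6563 CPM or more in every library labelled WT and at 47.6 CPM or less in every one labelled C2KO. The fast type IIb myosin gene Myh4 was high throughout, and the slow myosin gene Myh7 stayed at or below 0.173 CPM.

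The members lie on 7 chromosomes of the mm10 build, and several stand beside each other. On chromosome 7, Tnni2 (142442468 to 142444405) and Tnnt3 (142498836 to 142516009), both on the plus strand, are 54430 bases apart. Lsp1 lies wholly between them, and Prr33, on the opposite strand, reaches from within Lsp1 into an intron of Tnnt3 without sharing exon bases with either. Tnni1 (chromosome 1, 135799421 to 135810989) lies 25344 bases from Tnnt2 (135836334 to 135852268), again with 1 gene between. Tnnt1 (chromosome 7, 4504570 to 4515975) lies 2332 bases from the cardiac troponin I gene Tnni3, with none between. Tnnc2 is on chromosome 2 (164777162 to 164779734), Tnnc1 on chromosome 14 (31208312 to 31211711), Tpm1 on chromosome 9 (67022593 to 67049213), Tpm2 on chromosome 4 (43513726 to 43523554) and Tpm3 on chromosome 3 (90072651 to 90100902). No member shares exon bases with another annotated gene on either strand.

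The bases before the annotated start were looked up for the members in RefSeq promoters of GRCm38.p6, and 8 of the 10 members matched, with 11 entries. Those of Tnnc2 and Tnnc1 are shown first, since this pair encodes the same subunit and stood at opposite ends of the range of levels. Each run is the 250 bases before the start, 5′ to 3′ on the gene's strand. Capitals mark E-boxes, the CANNTG core that myogenic factors bind, and M-CAT elements, CATTCC in either orientation, which TEAD factors bind.
Tnnc2 promoter (chr2:164779735-164779984, minus strand): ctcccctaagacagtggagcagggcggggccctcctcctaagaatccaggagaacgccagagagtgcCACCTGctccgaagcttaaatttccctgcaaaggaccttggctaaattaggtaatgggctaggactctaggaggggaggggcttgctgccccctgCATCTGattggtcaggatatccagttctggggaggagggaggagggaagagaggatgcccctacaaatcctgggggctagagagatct
Tnnc1 promoter (chr14:31208062-31208311, plus strand): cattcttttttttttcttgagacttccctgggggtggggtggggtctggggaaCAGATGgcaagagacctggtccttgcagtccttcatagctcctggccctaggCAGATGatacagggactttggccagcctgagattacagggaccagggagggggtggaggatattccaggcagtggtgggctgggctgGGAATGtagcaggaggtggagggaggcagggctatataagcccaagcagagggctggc
Both windows held 2 E-boxes, and only that of Tnnc1 held an M-CAT element, 1 in all. An E-box occurs in 66.2% of all 32851 promoter windows of this length and an M-CAT element in 12.6%. All 11 members' windows held at least 1 E-box, 3 held an M-CAT element (Tnnc1, Tpm1 and 1 start of Tnnt2), and 1 held TATAAA (Tnnt1), which is in 12.4% of all windows. The MEF2 motif, searched on both strands and present in 2.92% of windows, was in none of the 11. No match overlapped another. These letters are a description of the windows and say nothing of which factor was bound.

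For each subunit, the fast genes made up nearly all troponin RNA in both genotypes. Tnnt3, the fast troponin T, ran from 17938 through a median of 20243 to 27419 CPM in WT fibres and from 18906 through 22243 to 27741 CPM in C2KO fibres. The ranges overlapped over most of their width, although the median was higher in C2KO. Tnni2, the fast inhibitory subunit, ran from 8300 through 9597 to 12771 CPM in WT and from 8986 through 9442 to 11118 CPM in C2KO, so the C2KO fibres lay inside the WT range. Tnnc2, the fast calcium sensor, ran from 13875 through 17045 to 25143 CPM in WT and from 15640 through 17793 to 21638 CPM in C2KO, again within the WT range. The 3 fast troponin genes took 4.69% of all gene counts in WT and 5.00% in C2KO.

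**Figure D1:**
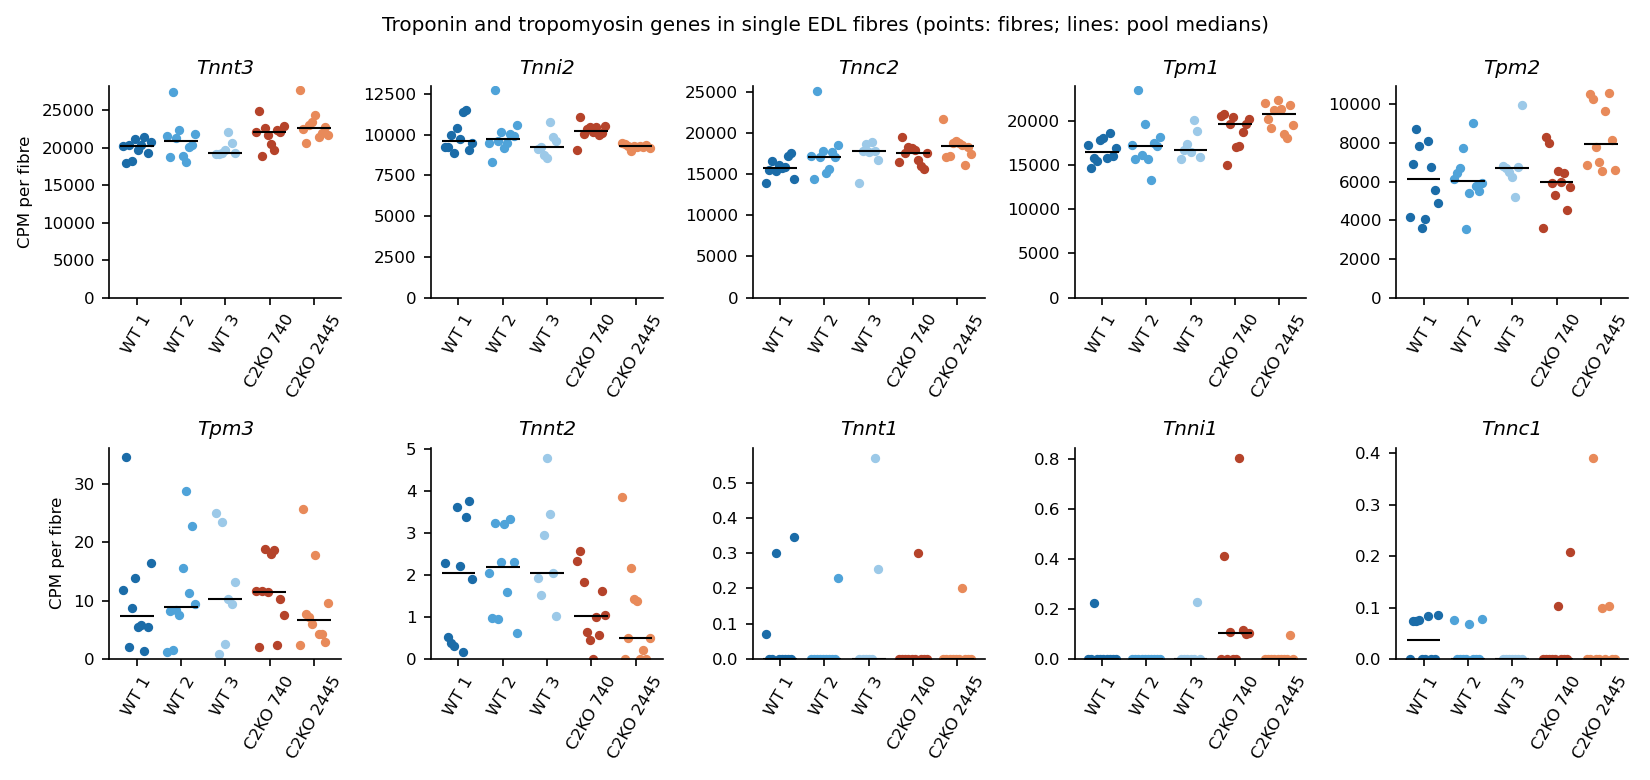
CPM per fibre (vertical axes, linear, from 0) of the 10 genes in the 5 pools, with 1 point a fibre and a line at each pool's median. The fast troponins and Tpm1 lie in a narrow band far from 0, Tpm2 and Tpm3 spread widely within each pool, and Tnnt1, Tnni1 and Tnnc1 lie at or near 0 in both genotypes.

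Scaled by exon length (TPM, a share out of 1000000, from the length the files give each gene), the order of the fast subunits was Tnnc2, Tnnt3, Tnni2 in both genotypes. The medians over WT fibres were 46599, 35002 and 28185 TPM. Those over C2KO fibres were 48711, 38262 and 26730 TPM. By mean TPM, Tnnc2 ranked 2 of all genes in WT and in C2KO, and Tnni2 ranked 8 in both. In every fibre Tnnc2 exceeded Tnnt3 per length, by 1.12-fold to 1.57-fold in WT and by 1.15-fold to 1.51-fold in C2KO. Tnnt3 exceeded Tnni2 per length in every fibre too, by 1.06-fold to 1.36-fold in WT and by 1.12-fold to 1.74-fold in C2KO. The length is that of all annotated exons joined, 1121 bases for Tnnt3 against 667 for Tnni2 and 692 for Tnnc2, and genes with many alternative exons are therefore understated.

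The slow and slow-cardiac troponins were at or near the detection limit. Tnnt1, the slow troponin T, had a count in 6 of 27 WT fibres and 2 of 20 C2KO fibres, and never passed 0.571 CPM. Tnni1, the slow inhibitory subunit, had a count in 2 WT and 7 C2KO fibres, 6 of the latter in pool 740. Tnnc1 had a count in 8 WT and 5 C2KO fibres, with a highest value of 0.391 CPM. For comparison, 3 counts correspond to 0.205 to 0.386 CPM in WT libraries and to 0.285 to 0.392 CPM in C2KO libraries. None of these 3 genes had enough counts to enter the test.

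Summed over fibres, Tnnt1 gave 19 counts beside 6422271 of Tnnt3 in WT and 5 beside 4326732 in C2KO. Per 1000000 counts of the pair this was 2.96 (exact 95% interval 1.78 to 4.62) in WT and 1.16 (0.375 to 2.70) in C2KO. Tnni1 gave 5 counts in WT, or 1.61 per 1000000 counts of the Tnni2 and Tnni1 pair (0.524 to 3.77), and 17 in C2KO, or 9.03 per 1000000 (5.26 to 14.5). The intervals for Tnni1 did not overlap, but they cover counting error alone, and 8 of the 17 counts came from 1 fibre of pool 740, which also had the highest fibroblast marker sum of all fibres (2156 CPM). Tnnc1 gave 8 counts in WT (1.51 per 1000000 counts with Tnnc2, 0.652 to 2.98) and 9 in C2KO (2.61, 1.19 to 4.95). Tnni3, the cardiac inhibitory subunit and no member, had 0 counts in all 47 fibres.

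Cardiac troponin T, Tnnt2, which skeletal muscle also makes during development, was low but had more counts than Tnnt1 in both genotypes. It had a count in each of the 27 WT fibres, from 0.166 through a median of 2.05 to 4.79 CPM. In C2KO it had a count in 16 of 20 fibres, from 0 through 0.824 to 3.86 CPM. Fibres of both genotypes overlapped, while the pools did not. The C2KO fibre of run 0092, the only run with both genotypes, had 1.83 CPM, among the 7 WT fibres of that run (1.02 to 4.79 CPM). Scaled pool values were 1.84, 2.06 and 2.51 CPM in WT pools 1, 2 and 3, against 1.15 and 1.05 CPM in C2KO pools 740 and 2445. The log2 fold change was -0.96 (± 0.26 SE, unadjusted p = 0.00985), and the adjusted edgeR p of 0.413 missed the threshold. At 650 counts in all WT fibres and 210 in all C2KO fibres, Tnnt2 remained rare beside Tnnt3, at 101 per 1000000 counts of the pair in WT (93.6 to 109) and 48.5 in C2KO (42.2 to 55.6).

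As a share of troponin T per length, Tnnt3 made up 99.990% ± 0.0019 (SD over 3 pools) for WT and 99.996% ± 0.00078 (SD over 2 pools) for C2KO. A difference of 0.0054 percentage points had an exact permutation p of 0.1, two-sided, the smallest value that 3 against 2 pools allow. Tnni2 as a share of troponin I had a lowest fibre value of 99.995%, with an exact permutation p of 0.4 for the genotypes. Tnnc2 as a share of troponin C had a lowest fibre value of 99.998%, with an exact permutation p of 0.4. With 6 shares compared in this way, none could pass a threshold of 0.05.

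The tropomyosins were less uniform. Tpm1, the main fast alpha-tropomyosin gene, ran from 13332 through a median of 16892 to 23418 CPM in WT fibres and from 14950 through 19953 to 22297 CPM in C2KO fibres, with overlapping ranges. Tpm2, which encodes beta-tropomyosin, ran from 3545 through 6425 to 9937 CPM in WT and from 3585 through 6733 to 10589 CPM in C2KO. Tpm3, the slow-fibre tropomyosin gene, which also encodes non-muscle forms, was at 0.884 through 9.39 to 34.6 CPM in WT and at 2.06 through 8.71 to 25.7 CPM in C2KO. Its level was thus far above the slow troponins and far below Tpm1 and Tpm2.

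The tropomyosin promoters are shown because the genes parted within single fibres. Tpm3 has 2 annotated starts, and the counts per gene do not separate them.
Tpm1 promoter (chr9:67049214-67049463, minus strand): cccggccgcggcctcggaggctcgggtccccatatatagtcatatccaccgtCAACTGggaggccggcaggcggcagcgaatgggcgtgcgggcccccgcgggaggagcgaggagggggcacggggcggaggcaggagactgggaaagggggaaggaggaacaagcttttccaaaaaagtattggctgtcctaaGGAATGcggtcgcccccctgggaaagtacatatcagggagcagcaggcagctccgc
Tpm2 promoter (chr4:43523555-43523804, minus strand): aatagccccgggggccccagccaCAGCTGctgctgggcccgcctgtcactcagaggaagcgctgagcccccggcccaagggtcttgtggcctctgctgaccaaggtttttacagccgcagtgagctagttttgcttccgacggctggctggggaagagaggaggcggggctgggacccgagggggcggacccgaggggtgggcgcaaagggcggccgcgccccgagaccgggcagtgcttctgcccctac
Tpm3 promoter, upstream start (chr3:90072401-90072650, plus strand): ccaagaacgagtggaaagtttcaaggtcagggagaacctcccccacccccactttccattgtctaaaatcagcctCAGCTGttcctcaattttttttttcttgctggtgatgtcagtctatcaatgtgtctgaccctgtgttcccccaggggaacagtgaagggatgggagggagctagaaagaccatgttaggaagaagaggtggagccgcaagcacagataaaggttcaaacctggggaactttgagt
Tpm3 promoter, downstream start (chr3:90079271-90079520, plus strand): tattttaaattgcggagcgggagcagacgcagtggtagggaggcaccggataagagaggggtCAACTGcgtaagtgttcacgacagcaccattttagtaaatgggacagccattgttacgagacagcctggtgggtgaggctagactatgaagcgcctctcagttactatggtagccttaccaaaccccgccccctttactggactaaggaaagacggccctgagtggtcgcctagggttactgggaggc
Capitals are as above. Each window held 1 E-box, and that of Tpm1 also held 1 M-CAT element. The windows of Tpm1 and Tpm2 were 65.2% and 69.6% G and C, against 48.8% and 53.6% for the upstream and downstream starts of Tpm3.

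Of all tropomyosin RNA per length, Tpm1 made up 73.1% ± 1.08 (SD over 3 pools) for WT and 73.6% ± 3.55 (SD over 2 pools) for C2KO, a difference smaller than the spread between the C2KO pools (exact permutation p = 1). Tpm2 made up 26.9% ± 1.08 and 26.3% ± 3.56 (exact permutation p = 1). Tpm3 made up 0.0481% ± 0.0016 in WT and 0.0376% ± 0.010 in C2KO (exact permutation p = 0.1, the smallest possible). Without pool 740 the C2KO minus WT difference in the Tpm1 share was -1.95 percentage points, and without pool 2445 it was 3.07. From fibre to fibre the Tpm1 share ran from 59.8% to 84.9% in WT and from 63.4% to 85.3% in C2KO. The 3 genes have joined exon lengths of 3279, 3326 and 3340 bases, so shares by counts were nearly the same. Their annotated coding transcripts reach 2890, 2175 and 2233 bases in GENCODE vM21 (GRCm38), shorter than the joined length, so TPM values of tropomyosins are understated beside those of Tnnc2, whose joined length of 692 bases is close to its single coding transcript of 700.

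Across the genotypes, no member passed the test. Of the 10 members, 7 entered it, and 0 were called. A call needed a change above 1.5-fold with an adjusted p below 0.05, and the fit called 0.0466% of the 12863 genes tested. At an unadjusted edgeR p under 0.05, 1 of the 7 (Tnnt2) passed, beside 797 higher and 531 lower genes of the 12863 tested. None of the 7 was called by limma-voom or DESeq2. The median log2 fold change of the 7 was 0.10, beside 0.00 over all tested genes.

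After scaling, the WT mean of Tnnt3 was 20155 CPM ± 572 (SD over 3 pools) and the C2KO mean 22593 CPM ± 2284 (SD over 2 pools). Its log2 fold change was 0.16 (± 0.094 SE, adjusted edgeR p = 0.587). For Tpm1 the means were 17002 CPM ± 260 (WT) and 19889 CPM ± 2369 (C2KO), 0.23 apart on the log2 scale (± 0.098 SE, adjusted edgeR p = 0.497). For both genes the 2 C2KO pools lay above all 3 WT pools, as they did for 13.1% of the genes tested, and Tnnt2 was the 1 member with both C2KO pools below, as were 14.5% of genes. Which C2KO pool was used changed the size. The log2 fold changes of Tnnt3 and Tpm1 were 0.06 and 0.11 without pool 2445, and 0.27 and 0.34 without pool 740. In fibres with Y-linked counts, where the C2KO fibres are again pool 740 alone, they were 0.04 and 0.09. In fibres with Xist counts, where the C2KO fibres are again pool 2445 alone, they were 0.26 and 0.33.

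Values within the run that held both genotypes, 0092, went the other way for these genes. The single C2KO fibre there had 18906 CPM of Tnnt3, below all 7 WT fibres (19107 to 22065 CPM), and 14950 CPM of Tpm1, also below all 7 (15677 to 20115 CPM). A fit over fibres with run as a term would rest on this 1 C2KO fibre and adds nothing to it. Run and genotype cannot be told apart for the other C2KO fibres.

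Tnni2 differed least, at 9691 CPM ± 327 (SD over 3 pools) for WT and 9826 CPM ± 34.5 (SD over 2 pools) for C2KO. The log2 fold change was 0.02 (95% interval -0.17 to 0.21, from the fit's degrees of freedom, adjusted edgeR p = 0.956). Tnnc2 changed by 0.10 (-0.14 to 0.34, adjusted edgeR p = 0.757), Tpm2 by 0.21 (-0.23 to 0.64, adjusted edgeR p = 0.721) and Tpm3 by -0.17 (-0.47 to 0.13, adjusted edgeR p = 0.667). The intervals of Tnni2, Tnnc2 and Tpm3 lie within 1.5-fold (0.58 on the log2 scale), and that of Tpm2 reaches beyond it. The 2 C2KO pools differed in Tpm2, with 5781 CPM in pool 740 and 8875 CPM in pool 2445, on either side of all 3 WT pools (6109 to 6796 CPM). No fibre of pool 2445 had under 6527 CPM of Tpm2, while pool 740 went down to 3585 CPM.

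**Figure D2:**
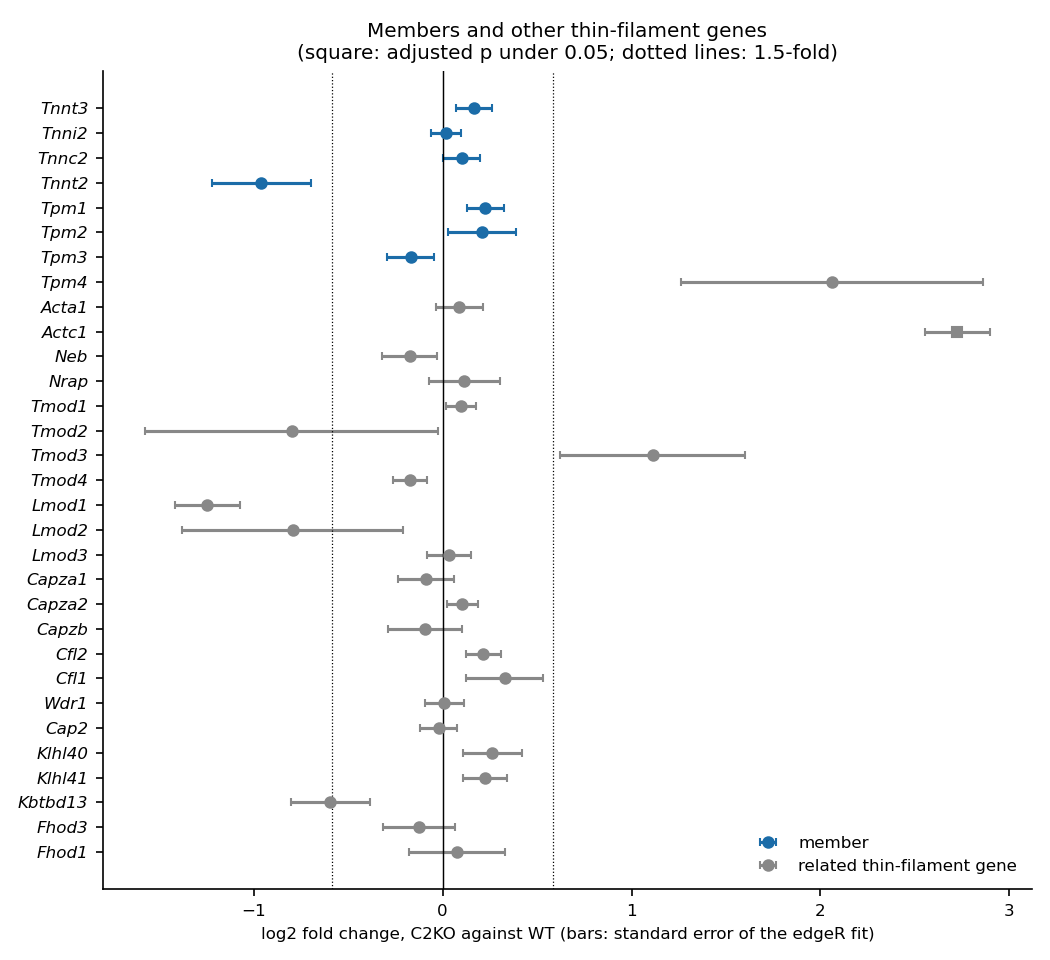
Log2 fold change of C2KO against WT (horizontal axis) for the 7 tested members (blue) and 24 other thin-filament genes (grey), with bars of 1 standard error of the edgeR fit, dotted lines at 1.5-fold and a square for an adjusted p under 0.05. The members other than Tnnt2 lie within 1.5-fold of no change, and Actc1 is the single square.

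The other genes of the thin filament give the setting. Of 25 listed, 24 were tested, 1 was called higher (Actc1), 0 were called lower, and the median log2 fold change was 0.05. Actc1, the actin of heart and developing muscle, rose by 2.72 on the log2 scale, with WT pools at 321 CPM ± 64.5 (SD over 3) and C2KO pools at 2120 CPM ± 203 (SD over 2) (± 0.17 SE, adjusted edgeR p = 0.0160). Without WT pool 1 or WT pool 2 the log2 fold change of Actc1 was 2.65 or 2.63, about as large, and the call was lost (adjusted edgeR p = 0.0971 and 0.222). WT fibres with Y-linked counts had a median of 32.6 CPM of Actc1 and those with Xist counts 708 CPM. The WT fibre above both limits, grouped with the Y-linked fibres, had 511 CPM, the most of that group. The log2 fold change was 4.53 in fibres with Y-linked counts (adjusted edgeR p = 0.0620) and 1.67 in fibres with Xist counts (adjusted edgeR p = 0.587), and neither was called. In run 0092 the C2KO fibre had 546 CPM of Actc1, within the WT range of 4.12 to 1124 CPM. Acta1, the adult skeletal actin on which the members sit, had WT and C2KO means of 64305 and 68345 CPM (0.09 ± 0.12 SE on the log2 scale, adjusted edgeR p = 0.840). Tmod4, which caps the pointed end of thin filaments, had a log2 fold change of -0.17 (± 0.091 SE, adjusted edgeR p = 0.559), and Capza2, a subunit of the barbed-end cap, one of 0.10 (± 0.082 SE, adjusted edgeR p = 0.686).

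A pair of further genes is named after their values were seen. Lmod1, a leiomodin that starts actin filaments, was at 8.51, 9.73 and 9.44 CPM in the WT pools against 4.41 and 3.37 CPM in C2KO pools 740 and 2445, a log2 fold change of -1.25 (± 0.17 SE, adjusted edgeR p = 0.206). DESeq2 called it (adjusted p = 2.18e-07), and edgeR on all of the pools did not. With single fibres as units edgeR called it too (-1.22, adjusted edgeR p = 1.52e-06). It was also called without pool 2445 (-1.06), a setting that leaves pool 740 as the only C2KO pool. In the other 13 alternatives Lmod1 was not called. Tpm4, the non-muscle tropomyosin gene, was at 7.63 CPM in pool 740 against 1.09 CPM in pool 2445 and 0.573 to 1.65 CPM in WT, and its log2 fold change of 2.06 (± 0.80 SE, adjusted edgeR p = 0.468) did not pass. Fibroblast markers summed to between 0 and 2156 CPM in pool 740, to at most 115 CPM in pool 2445 and to at most 124 CPM in WT. All 7 of them reached 1 CPM in a fibre of pool 740, as also in WT pools 1 and 2 and in pool 2445. Without the 3 fibres of highest marker sum the log2 fold change of Tpm4 was 0.88 (adjusted edgeR p = 0.607), and without pool 740 it was 0.06 (adjusted edgeR p = 0.985). Tpm4 was called without pool 2445 (2.87, adjusted edgeR p = 0.0430) and in fibres with Y-linked counts (3.25, adjusted edgeR p = 0.00308), settings in which the C2KO fibres are those of pool 740 alone, and with single fibres as units (1.97, adjusted edgeR p = 0.00989).

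Within pools, the fast troponins were among the more even of the abundant genes. The SD of log2 CPM between fibres of a pool was 0.11 for Tnni2, 0.12 for Tnnt3, 0.14 for Tnnc2 and 0.15 for Tpm1. Over the 68 genes with a mean of at least 1000 CPM the median was 0.16 (quartiles 0.14 and 0.23). Tpm2 stood above that upper quartile at 0.36. Tpm3 varied most, with an SD of 1.24, while the 1707 genes of 10 to 20 CPM, near its mean of 10.8, had a median of 0.32 and a 90th percentile of 0.51.

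Fibres with much Tnnt3 also had much Tpm1. After the pool means were subtracted from log2(CPM + 0.5), Pearson's r over the 47 fibres was 0.86 (Spearman's rho 0.83), 0.90 over WT and 0.79 over C2KO fibres, and 0.85 without the 2 fibres of most extreme Tnnt3. The correlations of Tnnt3 with Tnnc2 (0.68), of Tnnt3 with Tnni2 (0.64) and of Tnni2 with Tnnc2 (0.63) fell to 0.47, 0.54 and 0.39 without the 2 most extreme fibres. Tpm2 went against Tpm1 (r = -0.52, rho = -0.55, -0.50 in WT and -0.56 in C2KO). In C2KO fibres Tnni2 followed Tnnt3 at 0.26 and Tpm1 at 0.07, against 0.80 and 0.69 in WT, and the difference between genotypes was not tested. Tnni2 in pool 2445 spanned only 8986 to 9474 CPM. These are descriptions over fibres that share mice, runs and a common total of counts.

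**Figure D3:**
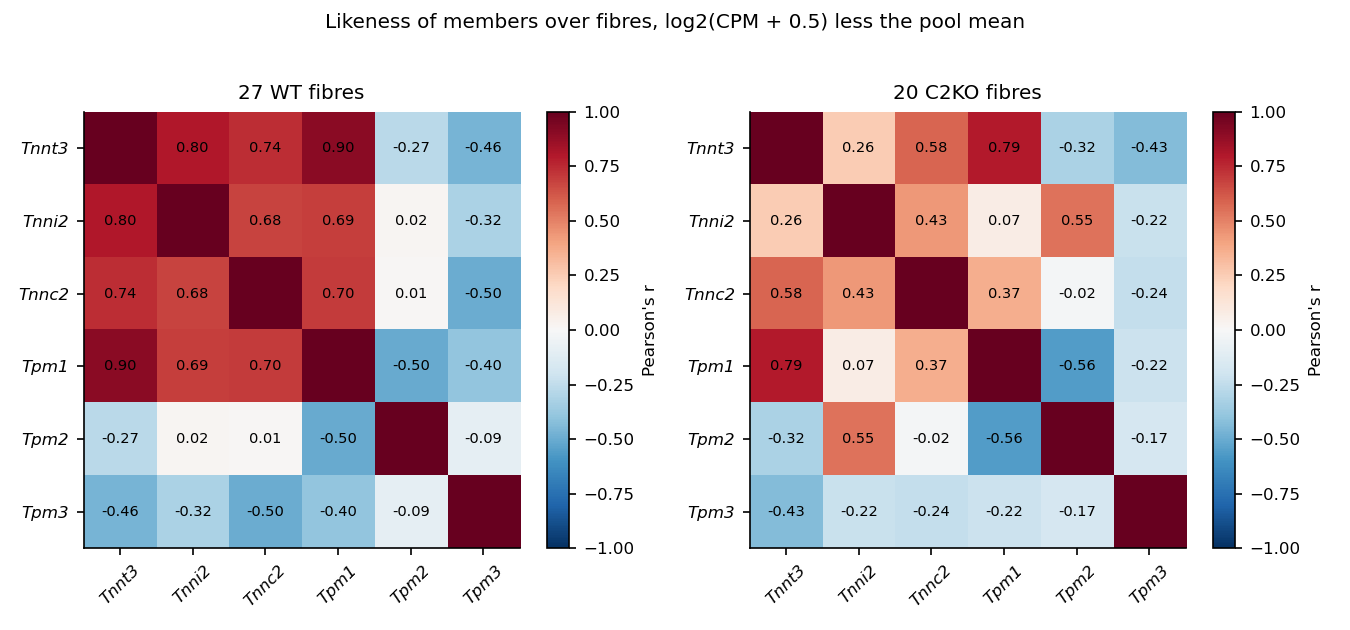
Pearson's r of log2(CPM + 0.5), less the pool mean, for each pair of the 6 members with a mean of at least 10 CPM, over 27 WT fibres (left) and 20 C2KO fibres (right). Tnnt3 and Tpm1 stand at 0.90 and 0.79, and Tpm1 and Tpm2 at -0.50 and -0.56.

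Of 6053 genes with a mean of at least 10 CPM, the 2 most like each member outside the family were named. Tnnt3 was closest to Fth1, the ferritin heavy chain (r = 0.70), and Lsp1 (0.69), and Tpm1 to Lsp1 (0.79) and Bsg (0.77). Without the 2 most extreme fibres the r of Tnnt3 was 0.45 with Fth1 and 0.68 with Lsp1. Lsp1, known as a leukocyte actin-binding protein, is the gene that lies between Tnni2 and Tnnt3, 3967 bases from the latter, and had a median of 17.2 CPM in WT and 24.5 CPM in C2KO fibres. Tnni2 was closest to Higd2a (0.71, but 0.85 in WT and 0.22 in C2KO) and Lamtor2 (0.71, 0.78 in WT and 0.49 in C2KO). Tnnc2 was closest to the fast myosin light chain gene Myl1 (0.82) and to Tceb2 (0.80). Without the 2 most extreme fibres the r of Tnnc2 was 0.67 with Myl1 and 0.66 with Tceb2. That of Tnni2 was then 0.56 with Higd2a and 0.59 with Lamtor2. Tpm2 was closest to Padi2, a peptidylarginine deiminase (0.83), and Ckmt2, the sarcomeric mitochondrial creatine kinase (0.74).

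Tpm3 was closest to Thbd, thrombomodulin (r = 0.87, rho = 0.82, 0.89 in WT and 0.86 in C2KO), and to Adamts4, a secreted protease (0.83). Thbd ran from 9.60 to 818 CPM in WT and from 5.47 to 914 CPM in C2KO fibres. The WT fibre with the most Tpm3, 34.6 CPM, had 818 CPM of Thbd and 81.4 CPM of Adamts4, and that with the least, 0.884 CPM, had 9.60 CPM and 0. Endothelial markers other than Thbd summed to 0.296 CPM in the first and 1.39 CPM in the second, and their sum had r = -0.20 with Tpm3 in WT and 0.49 in C2KO fibres. Fibroblast markers summed to 124 CPM in the first, the highest of the WT fibres, and 1.89 CPM in the second, with r = 0.12 in WT and 0.38 in C2KO. Further genes were chosen after values were seen. Tpm3 had r = 0.55 in WT and 0.80 in C2KO with Tpm4, and -0.36 and -0.18 with Mb, the myoglobin gene. With Myh1, the IIx myosin gene, Tpm3 had 0.09 and -0.35, and with Myh2, the IIa myosin gene, 0.24 and -0.53. These differences between genotypes were not tested. Within WT, Tpm3 had a median of 11.6 CPM in fibres with Y-linked counts and 5.46 CPM in those with Xist counts. The WT fibre above both limits, grouped with the Y-linked fibres, had 1.32 CPM, the least of that group.

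**Figure D4:**
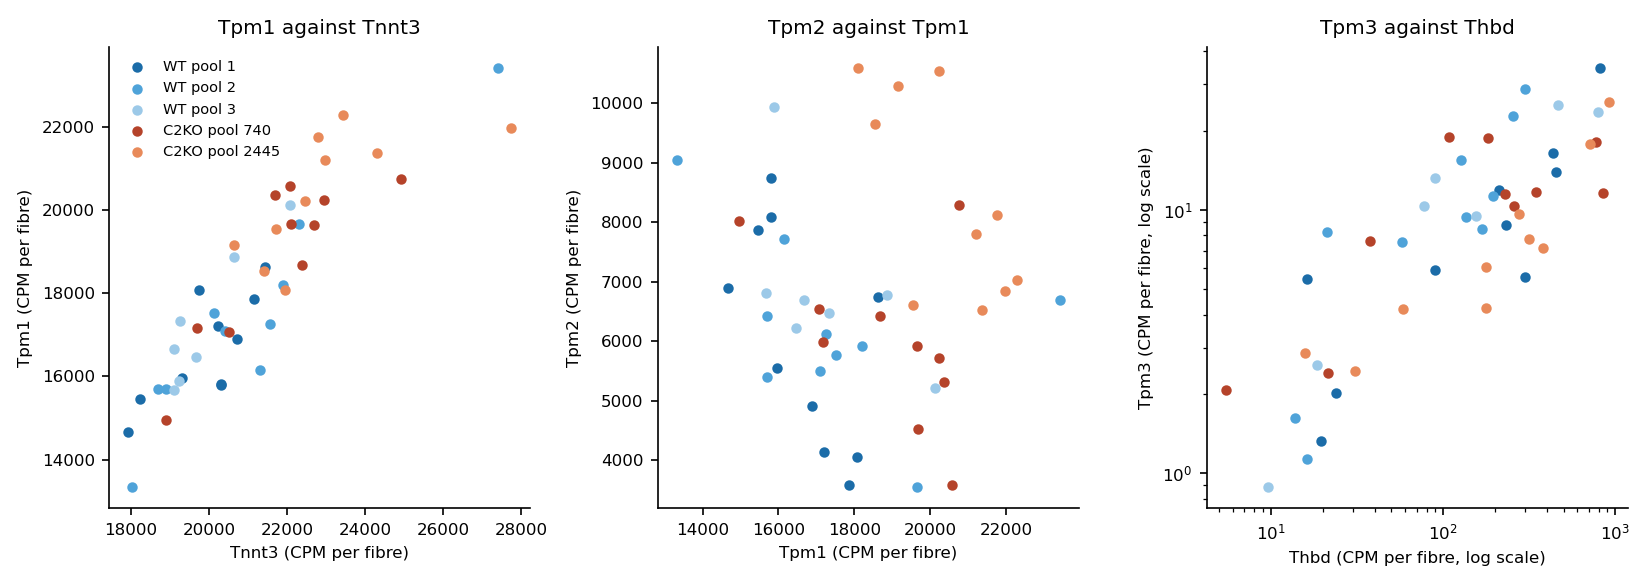
Level per fibre of Tpm1 against Tnnt3 (left), Tpm2 against Tpm1 (middle) and Tpm3 against Thbd (right, both axes logarithmic), in CPM, coloured by pool. Tpm1 rises with Tnnt3 in fibres of both genotypes, Tpm2 tends to be lower where Tpm1 is higher within a pool, and Tpm3 spans 0.884 to 34.6 CPM along with Thbd.

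Lists of fast and slow fibre genes outside the members are given as values, since with 0.0466% of all genes called a list of this size would seldom hold a call. Of 13 fast fibre genes all were tested and 0 were called, with a median log2 fold change of 0.04. Atp2a1, the fast calcium pump (-0.16 ± 0.12 SE, adjusted edgeR p = 0.678), Pvalb, parvalbumin (0.04 ± 0.079 SE, adjusted edgeR p = 0.910), and Mylpf, the fast regulatory light chain (0.11 ± 0.16 SE, adjusted edgeR p = 0.840), had the highest TPM in WT. Of 11 slow fibre genes 7 were tested and 0 were called, with a median of 0.04. The highest of these per length were Sln, sarcolipin (0.04 ± 0.67 SE, adjusted edgeR p = 0.990), Atp2a2, the slow calcium pump (0.18 ± 0.20 SE, adjusted edgeR p = 0.804), and Pln, phospholamban (-0.30 ± 0.56 SE, adjusted edgeR p = 0.887). The 11 genes summed to between 13.2 and 39.1 CPM in WT fibres and between 15.1 and 50.6 CPM in C2KO fibres.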

How the data were processed

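RNA of 47 single EDL fibres was sequenced, 1 library a fibre. The authors deposited raw counts per gene, made with featureCounts 1.5.2 on mm10 (per the file headers, read pairs over exons, strand option 2). CASAVA 1.4, HISAT2 2.0.5 and FastQC 0.11.2 stand in the submitters' processing notes. Strandedness of the library kit is not given in the sources used. Among 1081 pairs of fibres the lowest chi-square per degree of freedom was 8.40, so no library appeared more than once.

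From these counts, CPM and TPM were computed with pandas 2.3.3. Fibres of a few mice are not replicates, so counts were summed into 5 pools. The WT pools may share mice. The C2KO pools should not, since their prefixes part fibres with Y-linked counts from fibres with Xist counts. Spread between pools is what the p-values measure, and it may be technical. Between WT pools it is spread between runs, each holding fibres with Y-linked and fibres with Xist counts. Between C2KO pools it is spread between prefixes, which also part Y-linked from Xist counts. The SDs over WT pools and over C2KO pools are therefore not alike in kind. The test was that of edgeR 4.0.16 under R 4.3.3 (glmQLFit and glmQLFTest, TMM scaling, filterByExpr, Benjamini-Hochberg over all 12863 genes tested of 17153 with a count). Calls needed a change above 1.5-fold and an adjusted p below 0.05. Shares of isoforms were compared over pools with an exact permutation test (scipy 1.17.1). Shares of counts carry exact binomial intervals (Clopper-Pearson, level 0.95). These cover only counting error, because PCR copies of a molecule are not independent. Alternatives used limma 3.58.1, DESeq2 1.42.0, other scalings and filters, subsets of fibres and each pool left out.

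The members and lists were chosen with earlier results of these data known. Named were all members, called genes of each other list and its 3 highest per length in WT, and the 2 genes most like each member with a mean of at least 10 CPM. Markers of fibroblast, endothelial, smooth muscle, satellite, immune, Schwann and heart cells were checked per fibre, and outside pool 740 the median sum was at most 5.46 CPM for each list.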

Additional observations from a re-analysis of the deposited data

Results flagged for a closer look

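Of 48 combinations of a member and a pool in which fibres differed, 16 had a fibre set far apart from the rest of its pool, by the gap to its nearest neighbour over the pool's range. Chance alone flags about 1 group in 20 only where values are continuous, near normal and independent, and the members correlate over fibres. That rate does not apply to Tnnt1, Tnni1 and Tnnc1 (9 of the 16), which hold few counts: a lone fibre above 0 is set apart by construction. Fibres are numbered within a genotype in accession order, which is only a name.

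WT fibre 13 of pool 2 was highest in all 3 fast troponins, with 27419 CPM of Tnnt3 (next 22298), 12771 CPM of Tnni2 (next 10604) and 25143 CPM of Tnnc2 (next 18534). Among WT fibres it also had the least Myh4 (28821 CPM), the least Mybpc2 (6563 CPM) and the most Acta1 (88253 CPM). Its shift was thus not confined to troponins. C2KO fibre 1 of pool 2445 was highest in Tnnt3, at 27741 CPM (next 24304), and Tnnc2, at 21638 CPM (next 19041). WT fibre 27 of pool 3 had 9937 CPM of Tpm2 (next 6817), and WT fibre 2 of pool 1 had 34.6 CPM of Tpm3 (next 16.5).

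The other values rest on 1 to 8 counts. Tnnt1 reached 0.231 CPM in WT pool 2, 0.302 CPM in pool 740 and 0.201 CPM in pool 2445, with every other fibre of those pools at 0. Tnni1 reached 0.224 CPM in WT pool 1, 0.228 CPM in WT pool 3 and 0.0957 CPM in pool 2445, again with the rest at 0, and 0.805 CPM in pool 740 (next 0.413). Tnnc1 reached 0.208 CPM in pool 740 (next 0.104) and 0.391 CPM in pool 2445 (next 0.103).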

How the results depend on the processing

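In all 16 alternatives 0 members were called in either direction. With fibres in place of pools, Tnnt3 (0.16, adjusted edgeR p = 0.0210) and Tpm1 (0.22, adjusted edgeR p = 0.00358) passed the adjusted p but not the fold. No paired analysis was possible because the labels give no replicate numbers shared by WT and C2KO fibres or pools. Signs turned for uncalled members: Tnnt3 (-0.020) and Tpm1 (-0.16) with run as a term over fibres, which rests on 1 C2KO fibre, Tnni2 without WT pool 3 (-0.0075, against 0.033 without WT pool 1) and in fibres with Y-linked counts (-0.016), Tnnc2 (-3.26e-05, against 0.20 without pool 740) and Tpm2 (-0.13, against 0.48 without pool 740) without C2KO pool 2445, Tpm2 in fibres with Y-linked counts (-0.10), and Tpm3 in fibres with Xist counts (0.20). Among related genes, signs turned for Acta1 without pool 2445 (-0.096, against 0.26 without pool 740), with run (-0.011) and in fibres with Y-linked counts (-0.084), for Capza2 with run (-0.032) and for Tpm4 in fibres with Xist counts (-0.17). Leaving out each pool gave 0 to 2 related genes called higher and 0 to 1 lower, against 1 and 0. The higher count was 3 with fibres as units, 0 with run added, 2 in fibres with Y-linked counts and 0 in those with Xist counts. The lower count was 1 in DESeq2 and 1 with fibres as units. The differences in fast share of troponin T and C moved by less than the SD of the 3 WT pools in the 10 alternatives run. Other differences in share (C2KO minus WT, percentage points) moved by more. Leaving out each pool gave -1.95 to 3.07 for Tpm1, -3.07 to 1.97 for Tpm2, -0.018 to -0.0034 for Tpm3 and -0.00089 to 5.84e-05 for the fast share of troponin I, against 0.56, -0.55, -0.011 and -0.00042. Fibres with Y-linked counts gave 2.44 for Tpm1, -2.43 for Tpm2 and -0.00089 for troponin I. Fibres with Xist counts gave -1.58 for Tpm1, 1.59 for Tpm2, -0.0041 for Tpm3 and 3.24e-05 for troponin I, so the signs of Tpm1, Tpm2 and troponin I turned, as they did without pool 740. Tpm1 and Tpm2 also turned without WT pool 3 (-0.048 and 0.058). Without fibres of high stromal RNA Tpm3 was at -0.014 and troponin I at -0.00019, and by counts troponin I was at -0.00070. The causes were not tested.

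Counts called over all genes went from 6 to 197 in DESeq2, 8 in limma-voom, 11 with no filter, 485 with fibres as units, 41 with run added, 396 in fibres with Y-linked counts, 4 in those with Xist counts and 9 without 3 fibres of high stromal RNA. Leaving out 1 pool gave 1 (WT pool 1), 1 (WT pool 2), 2 (WT pool 3), 15 (C2KO pool 740) and 358 (C2KO pool 2445). Depth limits the slow troponins, for which 3 counts are 0.205 to 0.392 CPM.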
